A study of Mus musculus with 4 samples.

Results

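The 32 genes described here make, sense, move or export sterols and fatty acids. They comprise 12 enzymes of cholesterol synthesis, 4 genes of sterol sensing and movement, 3 genes of sterol efflux and its control, 5 genes of fatty acid synthesis and its carbon supply, 3 fatty acid elongases and 5 desaturases. They were taken by symbol, with earlier results of these data known, and all 32 were present among 23283 symbols. RNA was sequenced from Th2 cells, the helper T cells that make IL-4, IL-5 and IL-13, grown from splenic CD4 T cells of C57BL/6 mice that were Menin knockout (KO) or wild type (WT). Menin, encoded by Men1, belongs to a Trithorax group complex, a kind of chromatin regulator. The 4 groups were KO and WT cells of a longer culture named as 3 weeks, and KO and WT cells kept 5 days in Th2 medium, which held 15 ng/ml of IL-2 and 10 ng/ml of IL-4. The longer culture began with the same 5 days, went on for 2 days with no cytokine, and ended with 5 days of restimulation by immobilized anti-TCR antibody in the presence of IL-2 and anti-IL-4 antibody. The stated steps are shorter than 3 weeks in all, and the sources used here give neither the remaining time, the way Menin was deleted nor any pooling of animals.

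Cells adjust cholesterol and fatty acid synthesis to need through the SREBP proteins, made from Srebf1 and Srebf2. These are held in the endoplasmic reticulum by INSIG proteins while sterols are plentiful, and otherwise travel on the carrier SCAP to be cut into factors that switch on the synthesis genes. In the other direction LXR receptors, among them LXR-beta from Nr1h2, respond to oxidized sterols and raise the exporters Abca1 and Abcg1. Activated T cells raise lipid synthesis as they grow and divide, since new cells need membrane.

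There was 1 library in each group, so values have no replicate error, no difference can be tested, and no p-value is given. Levels are given in FPKM, fragments a count of fragments divided by transcript length and by depth, so that genes can be compared. Depth, inferred from steps in the low values, was 20.7 to 23.6 M reads per library, and the bracketed intervals on ratios are 95% counting intervals from the reads those depths imply. They cover counting error only and say nothing of the spread between cultures or mice. Differences are given as log2((KO FPKM + 1)/(WT FPKM + 1)), which understates differences of low genes, and a gene was counted as higher or lower where this reached 1 in size (2-fold). Of the 32 genes, 31 had a mean of at least 1 FPKM and were compared among 10973 such genes. Abca1 and Me1 reached that mean only through their KO values, since their WT values were under 1 FPKM at both times. A gene that passes through the group where it is high had to differ. Men1 had 5.88 FPKM in KO and 25.4 FPKM in WT at 3 weeks, and 10.3 FPKM in KO and 32.8 FPKM in WT at 5 days.

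The cells carried T helper RNA in all 4 libraries. Cd3e had 318 and 206 FPKM in KO and WT cells at 3 weeks, and 240 and 203 FPKM in KO and WT cells at 5 days. Gata3, the factor that defines Th2 cells, was at 45.9 FPKM in KO and 93.8 FPKM in WT at 3 weeks, and at 69.8 and 72.8 FPKM in KO and WT at 5 days. The hepatocyte markers Alb and Apoa1 were listed at 0 in all 4 libraries, and the 4 adipocyte markers summed to 0.17 FPKM in KO 5-day cells and to 0 in the other libraries. Of the CD8 T cell markers, Cd8a had 0.653 FPKM in KO and 0 FPKM in WT at 3 weeks, and 0.540 FPKM in KO and 0.0330 FPKM in WT at 5 days, and Cd8b1 had 3.12 and 2.04 FPKM in KO and WT at 3 weeks, and 5.16 and 4.35 FPKM in KO and WT at 5 days. The 4 B cell markers summed to 0.278 FPKM in KO and 0.155 FPKM in WT at 3 weeks, and to 2.72 FPKM in KO and 1.62 FPKM in WT at 5 days. Low levels of CD8 and B cell markers were thus present, each higher in KO as a sum, and their part in the results below was not tested. The B cell sums at 3 weeks rest on few reads. The KO sum was Cd79b alone, with 7 implied reads, while Cd79a went the other way, at 0 FPKM in KO and 0.113 FPKM in WT. In such bulk samples, fewer cells of a type and less RNA per cell cannot be told apart.

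At 3 weeks the sterol and fatty acid genes lay on both sides. The exporters Abcg1 and Abca1 and the desaturases Fads2 and Scd1 were higher in KO cells, and the sterol enzymes Sqle, Cyp51, Nsdhl and Idi1, the sterol sensor Insig1 and the fatty acid synthase gene Fasn were lower. That is 4 of 31 higher, where 7.97% of all compared genes were higher, and 6 of 31 lower, where 8.19% of all compared genes were lower. At 5 days Abca1 was higher and none of the 31 was lower, against 2.77% higher and 0.82% lower among all compared genes. Abca1, which passed the filter only through KO, is in both counts of higher genes, so it adds no weight to them. The median of the 31 was -0.27 at 3 weeks and -0.03 at 5 days, beside -0.08 and -0.02 for all compared genes. At both times 12 of the 31 lay above 0 and 19 below. Most of all compared genes lay below 0 at both times as well, since their median was below 0.

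**Figure D1:**
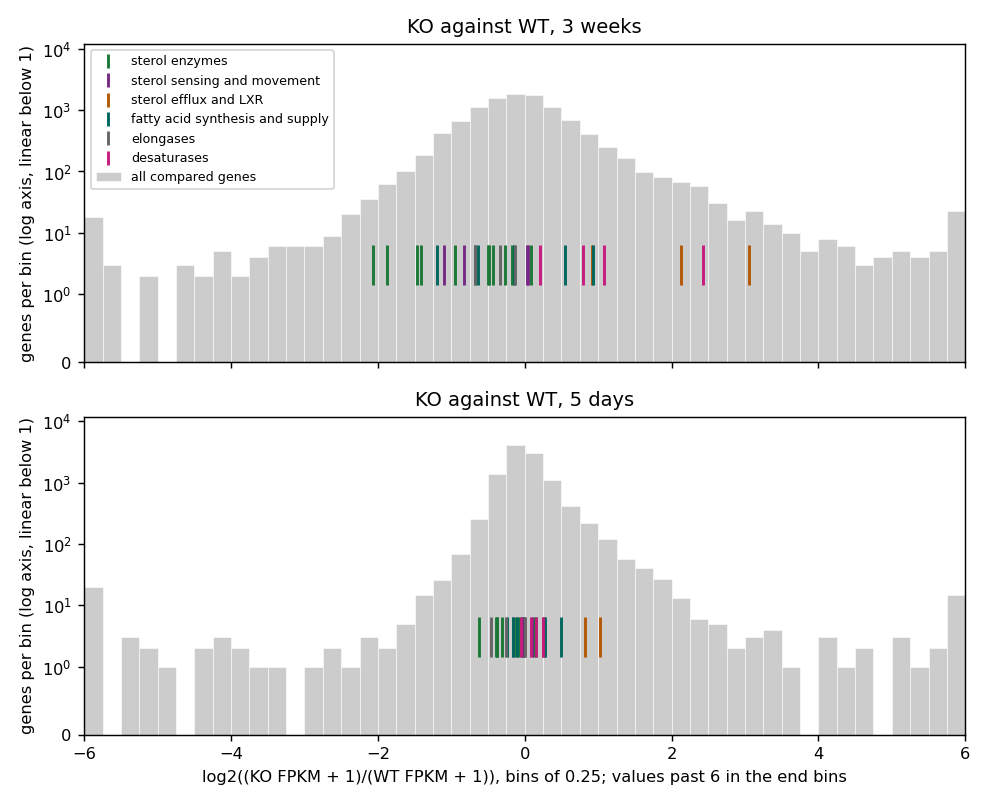
Distribution of log2((KO FPKM + 1)/(WT FPKM + 1)) over the 10973 compared genes (grey bars, genes per bin of 0.25 on a log axis that is linear below 1; values past 6 stand in the end bins), with the 31 compared sterol and fatty acid genes as coloured ticks at one fixed height, at 3 weeks above and at 5 days below. The ticks run from -2.07 (Sqle) to 3.05 (Abcg1) at 3 weeks and from -0.62 (Sqle) to 1.02 (Abca1) at 5 days.

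Of the 12 enzymes of cholesterol synthesis, Sqle, Cyp51, Nsdhl and Idi1 were at least 2-fold lower in KO cells at 3 weeks. That is 4 of 12, where 8.19% of all compared genes were lower. Sqle, the squalene epoxidase and a controlled step of the pathway, had 4.95 FPKM in KO and 23.9 FPKM in WT at 3 weeks, and 10.4 FPKM in KO and 16.5 FPKM in WT at 5 days. The KO 3-week library was thus the lowest of the 4 and the WT 3-week library the highest. The KO level was 20.7% of WT at 3 weeks (18.1% to 23.6%) and 62.9% at 5 days (56.5% to 69.9%), log2 -2.07 and -0.62. Of 10973 compared genes, 108 had a lower log2 ratio than Sqle at 3 weeks.

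Cyp51 encodes the demethylase that acts on lanosterol. It had 3.80 FPKM in KO and 16.6 FPKM in WT at 3 weeks, and 7.36 FPKM in KO and 9.82 FPKM in WT at 5 days. KO was 22.9% of WT at 3 weeks (20.2% to 26.0%) and 75.0% at 5 days (67.4% to 83.5%). The 4 libraries stood in the same order as for Sqle. Cyp51 shares 166 exon bases with Akap9 on the other strand, and the sources used here do not say whether reads were assigned by strand.

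Nsdhl, a dehydrogenase of the complex that strips methyl groups from the sterol ring, had 9.16 FPKM in KO and 27.1 FPKM in WT at 3 weeks, and 12.5 FPKM in KO and 16.7 FPKM in WT at 5 days. KO was 33.9% of WT at 3 weeks (30.2% to 38.0%). Idi1, the isomerase that readies the isoprene unit for chain building, had 7.88 FPKM in KO and 22.8 FPKM in WT at 3 weeks, and 13.0 FPKM in KO and 16.4 FPKM in WT at 5 days. KO was 34.6% of WT at 3 weeks (31.2% to 38.4%). Both genes were lower in KO at each time, and the gap was larger at 3 weeks, with differences of the log2 ratios (3 weeks minus 5 days) of -1.07 for Nsdhl and -1.11 for Idi1. That difference was -1.5 for Cyp51 and -1.44 for Sqle, and below 0 for all 12 enzymes.

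The other 8 enzymes did not reach 2-fold. Dhcr7, a late sterol reductase, came nearest, with 6.43 FPKM in KO and 13.3 FPKM in WT at 3 weeks, and 9.64 FPKM in KO and 12.8 FPKM in WT at 5 days. Its KO level was 48.3% of WT at 3 weeks (42.4% to 55.0%), log2 -0.95, and it passed 2-fold with a pseudocount of 0.1. Pmvk and Mvk, the kinases that phosphorylate mevalonate and its product, were at 61.1% and 67.5% of WT at 3 weeks, and Fdft1 and Fdps, which make squalene and its farnesyl precursor, at 68.1% and 73.4%. Lss, which closes squalene epoxide into lanosterol, had 17.7 FPKM in KO and 21.5 FPKM in WT at 3 weeks, 82.2% of WT (77.2% to 87.6%). The intervals of these 5 lay below 100% at 3 weeks and spanned 100% at 5 days. Exons of Fdps, Fdft1, Lss, Idi1 and Hmgcs1 overlap exons of other annotated genes too, by 323 to 1124 bases.

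Hmgcs1 and Mvd stood apart from the rest. Hmgcs1, an early enzyme of the mevalonate steps, had 15.9 FPKM in KO and 18.1 FPKM in WT at 3 weeks, and 16.6 FPKM in KO and 14.8 FPKM in WT at 5 days. It was at 87.7% of WT at 3 weeks (80.8% to 95%) and at 112% at 5 days (103% to 122%), so the KO library was the lower one at 3 weeks and the higher one at 5 days. Mvd, the decarboxylase that closes the mevalonate steps, had 13.5 FPKM in KO and 12.6 FPKM in WT at 3 weeks, and 11.4 FPKM in KO and 10.4 FPKM in WT at 5 days. It was the only enzyme of the 12 above 0 at 3 weeks, with an interval of 93.5% to 122%.

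Summed over the 12 enzymes, RNA came to 127 FPKM in KO and 227 FPKM in WT at 3 weeks (56.1% of WT), and to 164 FPKM in KO and 184 FPKM in WT at 5 days (89.6%). Their median log2 ratio was -0.59 at 3 weeks, with 11 of 12 below 0, and -0.10 at 5 days, with 10 of 12 below 0. The median of all compared genes was -0.08 and -0.02, so most of those also lay below 0. Between cultures, the sums lay in opposite directions in KO and WT. The 3-week sum was 77.4% of the 5-day sum in KO cells, where 10 of 12 enzymes lay below 0, and 124% of it in WT cells, where 10 of 12 lay above 0. For all compared genes the median log2 ratio between cultures was -0.06 in KO and 0.01 in WT. The exceptions among the 12 enzymes were Mvd and Lss, higher at 3 weeks in KO, and Fdps and Mvk, lower at 3 weeks in WT.

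Among 9 further genes of sterol synthesis, 1 (11.1%) was at least 2-fold lower at 3 weeks, near the 8.19% of all compared genes. None was higher and 8 lay below 0, where the median of all compared genes was -0.08. The 1 lower gene was Hsd17b7, a ketoreductase of the same demethylation complex as Nsdhl. It had 1.00 FPKM in KO and 3.96 FPKM in WT at 3 weeks, and 1.14 FPKM in KO and 1.35 FPKM in WT at 5 days. Over all 21 genes of sterol synthesis counted, the median was -0.49 at 3 weeks and -0.09 at 5 days, with 19 and 16 of 21 below 0. Most of all compared genes lay below 0 at these times too.

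**Figure D2:**
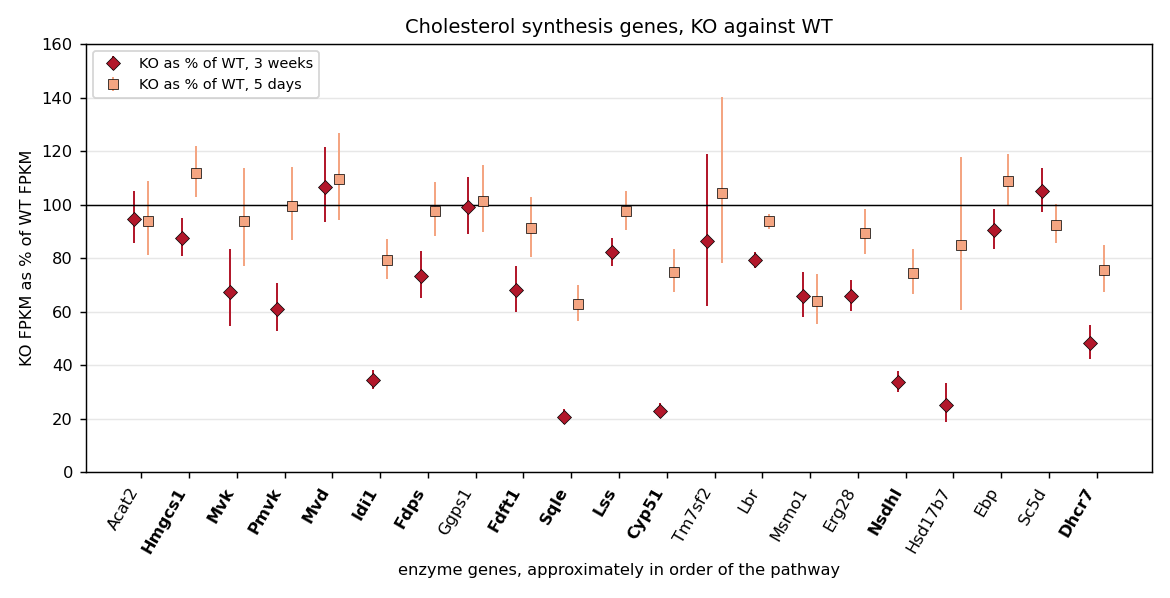
KO FPKM as a percentage of WT FPKM for 21 genes of cholesterol synthesis, approximately in pathway order, at 3 weeks (dark diamonds) and 5 days (light squares); bars are 95% counting intervals, the line marks 100%, and bold names are the 12 enzymes described first. At 3 weeks Sqle (20.7%), Cyp51 (22.9%), Hsd17b7 (25.4%), Nsdhl (33.9%) and Idi1 (34.6%) lay lowest, while Acat2, Mvd, Ggps1 and Sc5d lay near 100%.

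Genes of cell division were lower in the same KO library. Of 14 such genes, 7 were at least 2-fold lower at 3 weeks, where 8.19% of all compared genes were lower. All 14 lay below 0 at 3 weeks, with a median of -1.01 and a sum of 728 FPKM in KO and 1506 FPKM in WT. At 5 days 13 of 14 lay below 0, with a median of -0.25. The median of all compared genes was -0.08 at 3 weeks and -0.02 at 5 days. Mki67, the common marker of dividing cells, had 78.4 FPKM in KO and 152 FPKM in WT at 3 weeks. The part of this in the sterol result was not tested.

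RefSeq promoter windows of build GRCm38.p6, running from 250 bases before to 50 after a gene's start, were matched for 24 of the 32 genes. They were searched on both strands for CCAAT, the letters bound by NF-Y, a partner of SREBP at sterol genes, and for TCACNCCAC, a form of the sterol regulatory element. CCAAT stood in a window of 9 of 9 sterol enzymes, 3 of 3 genes of sterol sensing and movement, 4 of 5 genes of fatty acid synthesis, 2 of 3 elongases and 1 of 2 desaturases with a window, and in neither Abca1 nor Nr1h2. In all that is 19 of 24 genes, against 41.1% of 27025 symbols. Those symbols were not limited to genes expressed in these cells. A gene with several windows counted if any of them matched. TCACNCCAC was found in Hmgcs1 alone (1 of 24, against 1.44% of symbols). The letters GGGCGG, the GC box bound by Sp1, stood in 18 of 24 (38.2% of symbols) and CACGTG, an E-box, in 4 of 24 (8.09%). For the LXR element only an exact direct repeat of AGGTCA spaced by 4 bases was searched. It was in none of the 24 and in 0.0148% of symbols. Repeats that depart from these letters were not searched for, so this does not show that a gene lacks an LXR element. Sqle, Abcg1 and Scd1 were among the genes with no window. CCAAT did not follow the direction of the 3-week ratio throughout. Acss2 and Me1, higher in KO, hold it, and Acaca and Elovl6, lower in KO, do not. For Acaca the only window lies inside the gene, far from its annotated start. Me1 holds CCAAT only in a window inside the gene, and its window at the gene start lacks it. A match or its absence describes these letters in these windows and no more.

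The windows of 3 sterol enzymes and Fasn, which hold CCAAT, and of Abca1 and Fads2, which do not, are printed as examples. These genes lie on opposite sides of the 3-week comparison or, for Hmgcs1, hold both motifs. Each runs 5′ to 3′ on the gene's strand, and capitals mark CCAAT, its reverse complement ATTGG, and TCACNCCAC; in Fasn one pair of them overlaps. They lie at chr13:119690101-119690400 (Hmgcs1, plus strand), chr13:8885356-8885655 (Idi1, plus strand), chr5:4104648-4104947 (Cyp51, minus strand), chr11:120824498-120824797 (Fasn, minus strand), chr4:53159846-53160145 (Abca1, minus strand) and chr19:10101454-10101753 (Fads2, minus strand). The end of the Hmgcs1 window was not found at the start of a GENCODE transcript, whereas the ends of the other windows printed were.
Hmgcs1: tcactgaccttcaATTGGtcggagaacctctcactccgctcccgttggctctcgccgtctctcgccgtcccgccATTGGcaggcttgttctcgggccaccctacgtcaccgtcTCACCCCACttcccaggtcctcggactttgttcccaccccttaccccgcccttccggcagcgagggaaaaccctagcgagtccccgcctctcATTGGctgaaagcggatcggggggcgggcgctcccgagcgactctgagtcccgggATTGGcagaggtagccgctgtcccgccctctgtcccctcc
Idi1: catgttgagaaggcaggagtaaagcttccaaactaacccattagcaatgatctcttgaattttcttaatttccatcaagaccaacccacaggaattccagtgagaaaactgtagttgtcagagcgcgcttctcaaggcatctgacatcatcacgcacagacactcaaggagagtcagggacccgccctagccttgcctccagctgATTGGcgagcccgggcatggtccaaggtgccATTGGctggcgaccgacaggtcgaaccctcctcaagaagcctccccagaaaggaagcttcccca
Cyp51: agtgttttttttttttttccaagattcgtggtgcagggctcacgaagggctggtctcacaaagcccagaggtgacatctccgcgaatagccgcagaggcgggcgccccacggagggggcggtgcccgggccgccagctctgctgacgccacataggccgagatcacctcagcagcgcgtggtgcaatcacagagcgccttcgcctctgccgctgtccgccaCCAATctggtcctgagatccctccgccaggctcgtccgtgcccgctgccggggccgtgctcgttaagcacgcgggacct
Fasn: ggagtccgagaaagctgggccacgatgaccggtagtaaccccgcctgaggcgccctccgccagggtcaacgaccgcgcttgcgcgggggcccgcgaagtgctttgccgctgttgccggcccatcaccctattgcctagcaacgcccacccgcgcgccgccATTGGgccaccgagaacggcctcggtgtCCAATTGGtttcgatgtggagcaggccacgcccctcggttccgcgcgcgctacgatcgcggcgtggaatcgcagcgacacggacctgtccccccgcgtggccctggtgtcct
Abca1: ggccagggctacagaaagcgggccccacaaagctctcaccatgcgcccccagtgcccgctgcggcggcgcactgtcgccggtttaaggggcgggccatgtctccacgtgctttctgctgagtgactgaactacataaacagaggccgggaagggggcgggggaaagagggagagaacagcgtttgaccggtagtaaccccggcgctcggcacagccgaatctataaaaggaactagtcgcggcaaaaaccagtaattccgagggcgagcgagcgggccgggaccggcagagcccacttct
Fads2: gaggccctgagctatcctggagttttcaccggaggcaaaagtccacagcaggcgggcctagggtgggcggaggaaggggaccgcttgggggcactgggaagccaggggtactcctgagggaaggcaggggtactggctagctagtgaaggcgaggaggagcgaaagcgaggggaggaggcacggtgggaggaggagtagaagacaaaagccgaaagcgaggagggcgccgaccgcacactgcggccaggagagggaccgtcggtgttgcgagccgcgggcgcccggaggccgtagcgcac

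Of the 4 genes of sterol sensing and movement, Insig1 was at least 2-fold lower in KO cells at 3 weeks, where 8.19% of all compared genes were lower. None of the 4 passed 2-fold at 5 days. Srebf2, the precursor of the factor that drives cholesterol synthesis, had 53.4 FPKM in KO and 51.7 FPKM in WT at 3 weeks (103% of WT, 99.5% to 108%), and 70.4 FPKM in KO and 58.3 FPKM in WT at 5 days (121%). Srebf1, whose products favour fatty acid synthesis, had 34.1 FPKM in KO and 33.4 FPKM in WT at 3 weeks, and 42.2 FPKM in KO and 39.5 FPKM in WT at 5 days. At 3 weeks the counting intervals of both spanned 100%. These are RNA levels and do not show how much SREBP protein was cut.

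Insig1, itself a target of SREBP that retains it in the membrane, had 7.95 FPKM in KO and 18.2 FPKM in WT at 3 weeks, and 11.7 FPKM in KO and 11.8 FPKM in WT at 5 days. The 5-day libraries were alike and lay between the 3-week libraries. KO was 43.6% of WT at 3 weeks (38.9% to 48.9%), log2 -1.10, which was under 2-fold with a pseudocount of 5 or with upper-quartile scaling. Stard4, which carries cholesterol between membranes, showed the same order with a smaller gap, at 8.68 FPKM in KO and 16.1 FPKM in WT at 3 weeks (53.8% of WT, 43.6% to 66.2%) and 13.1 FPKM in KO and 14.8 FPKM in WT at 5 days. Insig2, the other INSIG gene and not one of the 32, had 8.25 FPKM in KO and 5.77 FPKM in WT at 3 weeks (1.43-fold, 1.15 to 1.80), and 6.14 FPKM in KO and 6.77 FPKM in WT at 5 days. It lay on the opposite side from Insig1 at 3 weeks, under 2-fold. Of 8 other compared regulators, Insig2 included, none was 2-fold higher at 3 weeks and 1 (12.5%) was lower, near the 8.19% of all compared genes. That was Pparg, a nuclear receptor of lipid storage that Th2 cells express, with 21.9 FPKM in KO and 64.1 FPKM in WT at 3 weeks, and 27.2 FPKM in KO and 22.3 FPKM in WT at 5 days. Scap, the SREBP carrier, was at 88.6% of WT at 3 weeks.

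Sterol export ran the other way. Abcg1, which passes cholesterol to high-density lipoprotein, had 15.1 FPKM in KO and 0.939 FPKM in WT at 3 weeks, and 9.03 FPKM in KO and 4.66 FPKM in WT at 5 days. Both KO libraries lay above both WT libraries, with the KO 3-week library highest and the WT 3-week library lowest. KO was 16.0-fold of WT at 3 weeks (12.8 to 20.7) and 1.94-fold at 5 days (1.70 to 2.22), log2 3.05 and 0.83. At 3 weeks 104 of the compared genes had a higher log2 ratio.

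Abca1, which loads cholesterol onto apolipoprotein A-I, had 3.98 FPKM in KO and 0.134 FPKM in WT at 3 weeks, and 2.15 FPKM in KO and 0.547 FPKM in WT at 5 days. The WT 3-week value rests on 32 implied reads. KO was 29.6-fold of WT at 3 weeks (20.8 to 43.5) and 3.93-fold at 5 days (3.19 to 4.85), while the log2 values with the pseudocount were 2.13 and 1.02. With a pseudocount of 5 Abca1 was under 2-fold at both times, since its levels are low. Nr1h2, the receptor LXR-beta, had 70.1 FPKM in KO and 36.6 FPKM in WT at 3 weeks (1.92-fold, 1.80 to 2.05), and 48.8 FPKM in KO and 40.9 FPKM in WT at 5 days (1.19-fold). It lay just under 2-fold at 3 weeks, log2 0.92, and above it with upper-quartile scaling.

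Both exporters are also abundant in macrophages. Of 4 macrophage markers, Csf1r was listed at 0 in both 3-week libraries and did not exceed 0.0130 FPKM at 5 days, and Lyz2 was at 0 FPKM in KO and 0.0989 FPKM in WT at 3 weeks. Cd14 had 2.03 FPKM in KO and 0.0978 FPKM in WT at 3 weeks, and 0.509 FPKM in KO and 0 FPKM in WT at 5 days. Adgre1 had 0.364 FPKM in KO and 0.0693 FPKM in WT at 3 weeks, and 1.82 FPKM in KO and 0.440 FPKM in WT at 5 days. Cd14 and Adgre1 were thus higher in KO at both times, as the exporters were, while Csf1r and Lyz2 reached at most 0.154 FPKM in any library. The 4 markers summed to 2.4 FPKM in KO and 0.266 FPKM in WT at 3 weeks, and to 2.49 FPKM in KO and 0.565 FPKM in WT at 5 days. The NK marker Klrb1c had 1.96 FPKM in KO and 0.0174 FPKM in WT at 3 weeks, and 1.51 FPKM in KO and 0.119 FPKM in WT at 5 days. The part of these in the exporter result was not tested.

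Uptake and movement genes outside the 32 also lay on both sides at 3 weeks. Mylip, an LXR target that encodes a ubiquitin ligase, had 7.33 FPKM in KO and 0.407 FPKM in WT at 3 weeks, and 7.4 FPKM in KO and 4.16 FPKM in WT at 5 days. Tmem97, a sterol-regulated membrane protein gene, was at 29.7% of WT at 3 weeks. Npc2, which moves cholesterol out of lysosomes, and Osbpl3, an oxysterol-binding protein gene, were at 2.93-fold and 2.58-fold of WT. These 4 were the genes past 2-fold among the 7 compared genes of uptake, movement and storage other than Stard4. Of the 7, 42.9% were higher and 14.3% lower, beside 7.97% and 8.19% of all compared genes.

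Fatty acid synthesis differed gene by gene. Fasn, the synthase that builds palmitate, had 17.1 FPKM in KO and 40.6 FPKM in WT at 3 weeks, and 24.5 FPKM in KO and 29.2 FPKM in WT at 5 days. It stood in the order of Sqle and Cyp51, with KO 3-week lowest and WT 3-week highest, an order that not all the sterol enzymes shared. KO was 42.1% of WT at 3 weeks (40.5% to 43.9%) and 83.9% at 5 days. Acaca, the carboxylase that supplies malonyl-CoA, had 4.10 FPKM in KO and 6.91 FPKM in WT at 3 weeks (59.4% of WT, 54.4% to 64.8%), and 5.24 FPKM in KO and 5.96 FPKM in WT at 5 days. It kept the same order of libraries without reaching 2-fold.

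The genes that supply carbon and reducing power did not share that order. Acly, which makes cytosolic acetyl-CoA from citrate, had 46.8 FPKM in KO and 52.0 FPKM in WT at 3 weeks, and 46.1 FPKM in KO and 49.8 FPKM in WT at 5 days. Acss2, which makes it from acetate, had 10.4 FPKM in KO and 6.77 FPKM in WT at 3 weeks (1.54-fold, 1.36 to 1.75), and 6.66 FPKM in KO and 4.45 FPKM in WT at 5 days (1.5-fold, 1.27 to 1.76). Acss2 was thus higher in KO at both times by a like ratio, though under 2-fold, and its exons overlap those of Ggt7, Gss and Acss2os on the other strand. Me1, the malic enzyme that makes NADPH, had 1.98 FPKM in KO and 0.566 FPKM in WT at 3 weeks, and 1.25 FPKM in KO and 0.861 FPKM in WT at 5 days. KO was 3.50-fold of WT at 3 weeks (2.46 to 5.12), but the low levels left the log2 value at 0.93, and it passed 2-fold with a pseudocount of 0.1. None of the 3 other compared genes of fatty acid synthesis passed 2-fold at either time. Of all compared genes, 7.97% were higher and 8.19% lower at 3 weeks, so this absence among 3 genes says little.

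None of the 3 elongases, which lengthen fatty acids after Fasn, reached 2-fold at either time. With 7.97% of all compared genes higher and 8.19% lower at 3 weeks, this absence among 3 genes says little. Elovl5, which acts on polyunsaturated chains, had 42.1 FPKM in KO and 67.6 FPKM in WT at 3 weeks (62.2% of WT, 59.1% to 65.5%), and 71.9 FPKM in KO and 85.7 FPKM in WT at 5 days (83.9%). Elovl6, which extends palmitate, had 3.79 FPKM in KO and 5.07 FPKM in WT at 3 weeks (74.7%), and 3.99 FPKM in KO and 5.87 FPKM in WT at 5 days (67.9%). Elovl1, which makes very long saturated chains, had 44.8 FPKM in KO and 49.3 FPKM in WT at 3 weeks (90.9%), and 43.7 FPKM in KO and 43.8 FPKM in WT at 5 days (99.9%, 91.6% to 109%).

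**Figure D3:**
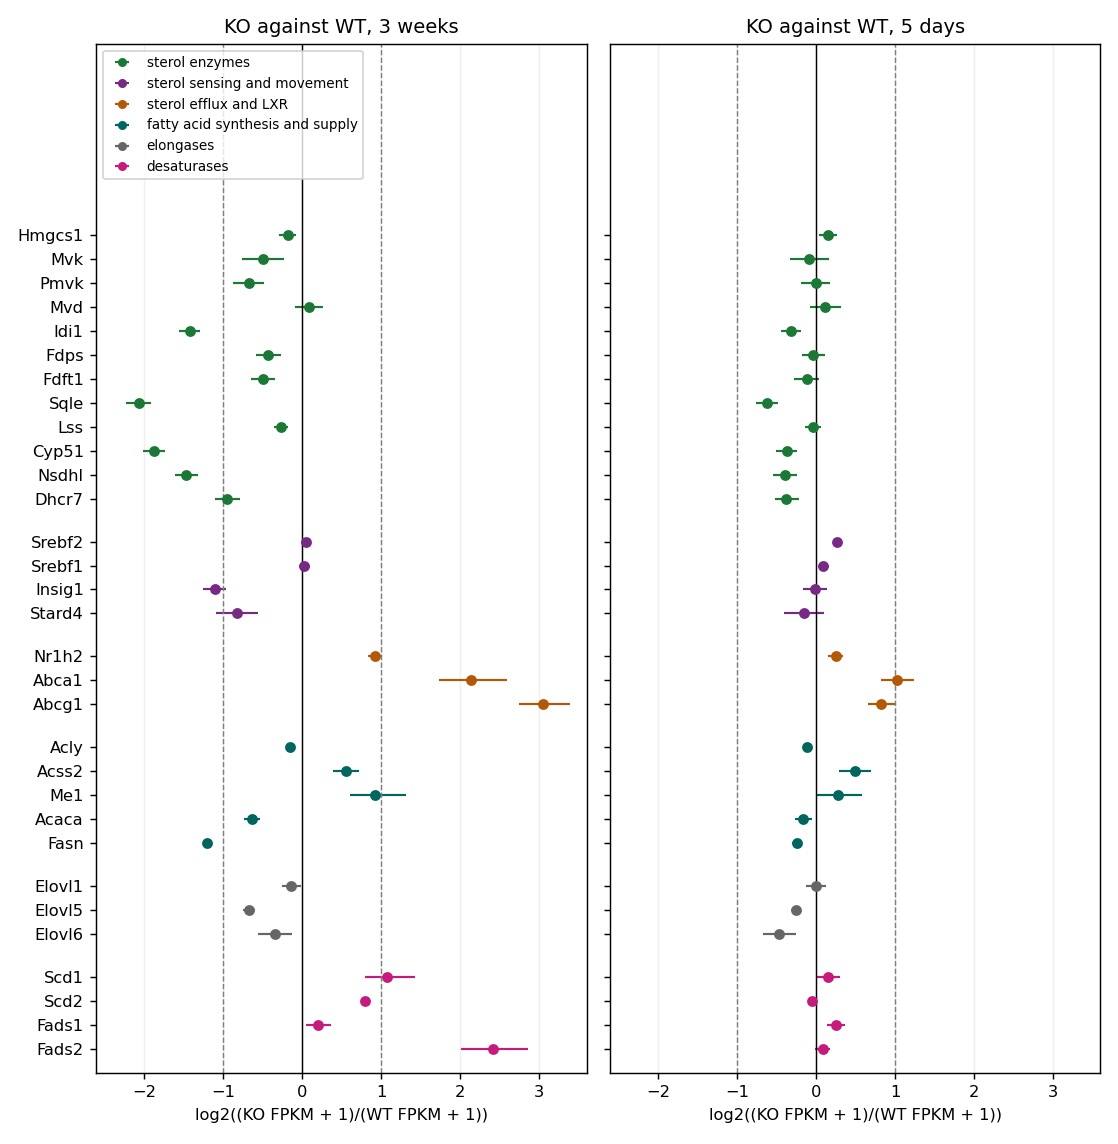
Log2((KO FPKM + 1)/(WT FPKM + 1)) of the 31 compared genes, coloured by role, at 3 weeks (left) and 5 days (right); bars are 95% counting intervals of the FPKM ratio carried to this scale with WT held fixed, and dashed lines mark 2-fold. At 3 weeks 6 genes lie left of the lower dashed line and 4 right of the upper one, and at 5 days Abca1 alone lies past a dashed line.

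The desaturases, which put double bonds into fatty acids, were the group of the 6 with the lowest median ratio between the longer and the shorter culture, log2 -1.07 in KO and -1.67 in WT over the 4 compared. At 3 weeks Fads2 and Scd1 were higher in KO than in WT. Fads2, which starts the conversion of essential fatty acids to polyunsaturated ones, had 7.48 FPKM in KO and 0.582 FPKM in WT at 3 weeks, and 26.3 FPKM in KO and 24.7 FPKM in WT at 5 days. The 5-day libraries were alike, and the WT 3-week library was far below the other 3, resting on 41 implied reads. KO was 12.9-fold of WT at 3 weeks (9.23 to 17.9) and 1.06-fold at 5 days (0.993 to 1.14). The 3-week level was 28.5% of the 5-day level in KO and 2.36% of it in WT.

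Scd1, a stearoyl-CoA desaturase that makes monounsaturated fatty acids, had 2.07 FPKM in KO and 0.451 FPKM in WT at 3 weeks, and 5.28 FPKM in KO and 4.66 FPKM in WT at 5 days. KO was 4.59-fold of WT at 3 weeks (3.37 to 6.44), log2 1.08, which was under 2-fold with a pseudocount of 5. Scd2, its far more abundant relative in these cells, had 72.3 FPKM in KO and 41.4 FPKM in WT at 3 weeks (1.75-fold, 1.69 to 1.81), and 106 FPKM in KO and 110 FPKM in WT at 5 days (0.969-fold, 0.945 to 0.994). Scd1 and Scd2 have close copies nearby, among them Scd3 and Scd4, and the authors' counting could have split reads among them.

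Fads1, which acts after Fads2 in the same conversion, did not show the genotype gap. It had 7.57 FPKM in KO and 6.43 FPKM in WT at 3 weeks (1.18-fold, 1.04 to 1.33), and 17.4 FPKM in KO and 14.5 FPKM in WT at 5 days (1.21-fold, 1.11 to 1.31). Its 3-week level was 43.4% of the 5-day level in KO and 44.5% in WT. Fads3, the third gene of the cluster, was too low to be compared, with 0.655 FPKM in KO and 0.0138 FPKM in WT at 3 weeks, and 0.694 FPKM in KO and 0.273 FPKM in WT at 5 days. The WT 3-week value equals 1 implied read, so the ratio of 47.6 has an interval of 5.64 to 1380. All 5 desaturase genes lie on chromosome 19, as does Men1 (chr19:6334979-6340891, GRCm38): Fads1, Fads2 and Fads3 at 3.70 to 3.84 Mb from it and Scd1 and Scd2 at about 38.0 Mb. Other lipid genes there lay on both sides at 3 weeks. Cpt1a (2.95 Mb from Men1) was at 166% of WT, Acsl5 (48.9 Mb) at 53.7% and Tm7sf2 (0.267 Mb) at 86.4% (62.2% to 119%). Any part of position was not tested.

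Summed over the 5 desaturases, RNA came to 90.1 FPKM in KO and 48.8 FPKM in WT at 3 weeks, and to 156 FPKM in KO and 154 FPKM in WT at 5 days. The 3-week sum was 57.8% of the 5-day sum in KO and 31.8% of it in WT, and most of each sum was Scd2. Of the 6 other compared genes of elongation and desaturation, 1 passed 2-fold at 3 weeks, Hacd1, a dehydratase of the elongation cycle. It had 0.406 FPKM in KO and 2.04 FPKM in WT at 3 weeks, and 3.99 FPKM in KO and 6.17 FPKM in WT at 5 days. The 3-week values rest on 6 implied reads in KO and 35 in WT, with an interval of 6.44% to 45.0% of WT. Among all compared genes 8.19% were lower at 3 weeks. Scd3 had 1.40 FPKM in KO and 0.694 FPKM in WT at 3 weeks, and 1.94 FPKM in KO and 2.24 FPKM in WT at 5 days.

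**Figure D4:**
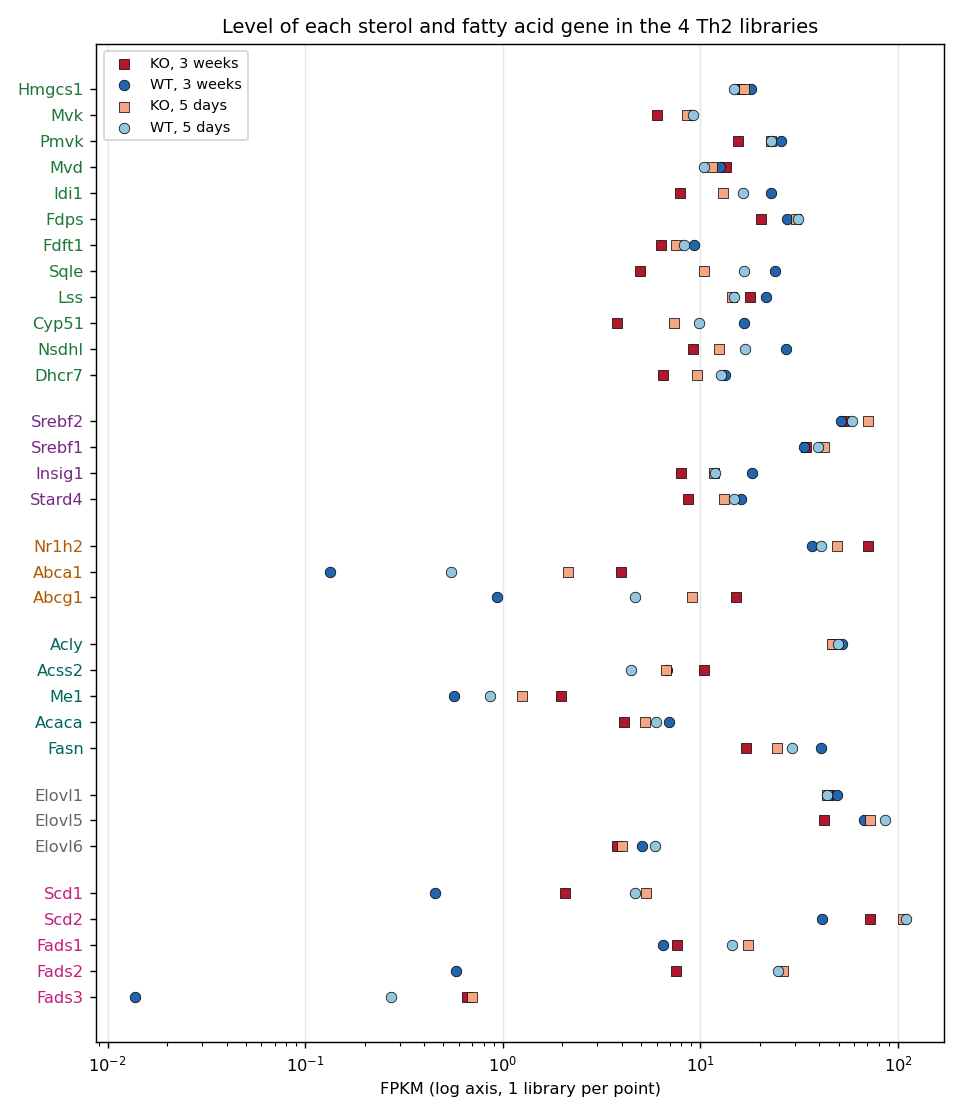
FPKM (log axis) of the 32 genes in each library, squares for KO and circles for WT, dark for 3 weeks and light for 5 days, with names coloured by role. The WT 3-week library stands far left of the others for Abca1, Scd1, Fads2 and Fads3, and the KO 3-week library lies left of the others for Sqle, Cyp51, Idi1 and Fasn.

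Between cultures, counted at 2-fold, none of the 31 genes was higher at 3 weeks than at 5 days in either genotype, where 4.35% of all compared genes were higher in KO and 3.03% in WT. In KO cells 3 were lower (Fads2, Fads1 and Scd1), where 4.39% of all compared genes were lower. In WT cells 5 were lower (Fads2, Scd1, Abcg1, Scd2 and Fads1), where 2.83% were lower. Abcg1 in WT had 0.939 FPKM at 3 weeks and 4.66 FPKM at 5 days, 20.2% of its 5-day level, and in KO 15.1 and 9.03 FPKM, 167% of it. These comparisons share their libraries with the genotype comparisons.

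The difference of the genotype log2 ratios (3 weeks minus 5 days) was counted at 4-fold. Fads2 (2.34) and Abcg1 (2.22) were the 2 of 31 past it on the higher side, where 1.26% of all compared genes were, and none of the 31 was past it on the lower side, where 0.784% were. Cyp51 (-1.5) and Sqle (-1.44) came nearest on the lower side. For Fads2 and Abcg1 the WT 3-week library was the lowest of the 4, and for Cyp51 and Sqle the KO 3-week library was the lowest and the WT 3-week library the highest.

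**Figure D5:**
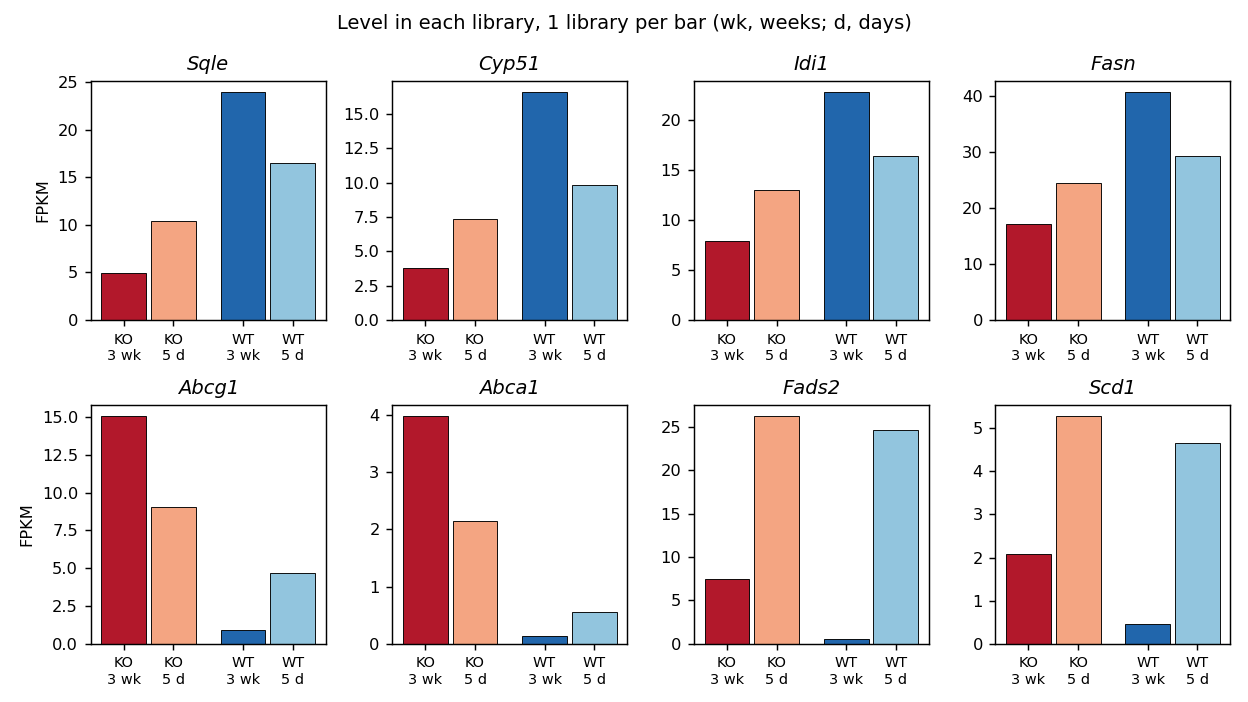
FPKM of 8 genes in each library (1 library per bar), with KO bars left of WT bars and 3 weeks left of 5 days within each genotype. Sqle, Cyp51, Idi1 and Fasn are lower at 3 weeks in KO and higher at 3 weeks in WT, Abcg1 and Abca1 the reverse, and Fads2 and Scd1 are lower at 3 weeks in both genotypes.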

How the data were processed

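Per the labels' protocols, libraries came from TRIzol-extracted total RNA and a TruSeq Stranded mRNA kit. The deposited unit is FPKM per gene symbol, which the authors made with Bowtie 0.12.8, TopHat 1.3.2 and Cufflinks 2.0.2 on build mm10, per the submitters' processing notes. The sources used here do not give the annotation, the read layout, any filter or whether strand was used. Values of a symbol on several lines (240 symbols) were summed, and 1 symbol with a spreadsheet error mark was left out. Compared genes had a mean of at least 1 FPKM over the 4 libraries, and ratios used a pseudocount of 1. With 1 library per group no test was run.

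Implied reads came from FPKM, GENCODE M21 transcript length less 200 bases, and the inferred depth. In single-transcript genes, 59.6% to 61.8% of values under 5.5 implied reads lay within 0.05 of a whole number, against 10% if evenly spread. Ratio intervals are exact Clopper-Pearson. The ratios and intervals were tried on simulated counts that held counting error alone, drawn at the inferred depths. That is what the intervals assume, so the simulation did not test the depths themselves, and low genes were not scored in it. The genes, their pathway and marker lists and the alternatives were chosen with earlier results of these data known. All 32 genes are named, as are other pathway genes past 2-fold between genotypes; some pathway genes are not reported here and were left out of the lists. Python 3.11.15, pandas 2.3.3 and SciPy 1.17.1 were used.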

Additional observations from a re-analysis of the deposited data

Results flagged for a closer look

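For 8 of 98 compared genes (those of the 32, the other lipid pathway genes, the cell division and marker genes, and Men1), the KO library was the higher at one time and the lower at the other, with counting intervals on opposite sides of equality. With 1 library per group the difference between times was not tested. The log2 ratio KO against WT at 3 weeks minus that at 5 days was -0.33 for Hmgcs1 and 0.84 for Scd2, both among the 32 genes. It was -1.78 for Pparg, -0.83 for Acsl3, -0.29 for Acsl4 and -0.26 for Scap among the other lipid genes. It was -0.94 for Cdk1, a cell division gene, and 0.69 for Cd4, a T helper marker.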

How the results depend on the processing

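No paired analysis was possible because each group had 1 library and the labels give no replicate numbers. Of the 8 alternatives, only the changes of scaling could alter a gene's sign. Pseudocounts and filters leave the sign fixed, and none of these genes stood on several lines. Under the scalings, all 31 compared genes kept the sign of their 3-week log2 ratio, and 28 of 31 kept that at 5 days. Pmvk, Insig1 and Elovl1, all within 0.02 of 0, changed sign with upper-quartile scaling. With a pseudocount of 5, the count of all compared genes at least 2-fold higher in KO was 458 at 3 weeks and 122 at 5 days, and lower 440 and 56, against 874, 304, 899 and 90 as reported. A pseudocount of 0.1 gave 499 higher and 143 lower at 5 days. A mean of at least 5 FPKM gave 554 higher at 3 weeks and 201 at 5 days. With a pseudocount of 5, the number of the 31 genes higher was 2 (not 4) at 3 weeks and 0 (not 1) at 5 days. The mean of 5 FPKM left 27 of the 31 to compare and gave the same numbers. By construction, both settings take low genes such as Abca1 and Scd1 out of these counts. The median of the 27 at 3 weeks was -0.43. Of the genes past 2-fold at 3 weeks in either direction, 49.3% were higher as reported and 59.1% with upper-quartile scaling, which put the median of all genes at 0.01.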

Other observations

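Fatty acid activation, storage and burning showed no gene past 2-fold on the log2 scale between genotypes among 14 compared genes. Among all compared genes, 7.97% were higher and 8.19% lower at 3 weeks, and 2.77% higher and 0.82% lower at 5 days. Their median was -0.08 at 3 weeks and -0.02 at 5 days. Of the 14 genes, 3 lay above 0 and 11 below at 3 weeks, with a median of -0.39. At 5 days 10 lay above 0 and 4 below, with a median of 0.06. The genes named next were chosen after their values were seen. Acadvl, a mitochondrial dehydrogenase of long-chain fatty acids, had 34.3 FPKM in KO and 66.2 FPKM in WT at 3 weeks, and 44.9 FPKM in KO and 43.9 FPKM in WT at 5 days. Acsl5, which activates fatty acids with coenzyme A, had 58.7 FPKM in KO and 109 FPKM in WT at 3 weeks, and 73.2 FPKM in KO and 72.0 FPKM in WT at 5 days. In both, the KO level at 3 weeks was near 50% of WT (51.9% for Acadvl and 53.7% for Acsl5). Cpt1a, the gate for fatty acid entry into mitochondria, lay on the other side, with 77.7 FPKM in KO and 46.8 FPKM in WT at 3 weeks, and 70.1 FPKM in KO and 58.1 FPKM in WT at 5 days. Dgat1, which completes triglyceride synthesis, had 101 FPKM in KO and 61.9 FPKM in WT at 3 weeks, and 67.4 FPKM in KO and 35.8 FPKM in WT at 5 days. It was higher in KO at both times, by 1.63-fold at 3 weeks (1.55 to 1.72) and 1.89-fold at 5 days (1.76 to 2.02).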
